A study of Mus musculus with 48 samples.

Results

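The transcripts described here code for 6 proteins that handle acetyl-CoA, long-chain fatty acids and cholesterol: Acly, Acat2, Acsl3, Acsl4, Acot13 and Abca1. They were chosen by name from the 478 genes that the authors' deposited tables hold for a glial gene panel, and all 6 were found. The panel had been hybridised to microglia, the resident macrophages of the brain, taken from the hippocampus of Balbc/Byj mouse pups at 17 days of age. Each of 3 rearing groups had 16 animals, 8 of each sex. Animals named CTL in the labels had control rearing. The groups LB and UPS are, as background, early-life stress models: pups raised with limited bedding, or with unpredictable stress as well. All groups were of a single strain, and no label names a transgene or a drug. Every ratio below comes from the authors' deposited tables, which set the groups against each other pair by pair with males and females pooled.

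Acetyl-CoA is the building block of fatty acids and sterols. Acly splits citrate in the cytosol to supply it, and Acat2, the cytosolic thiolase, condenses it to acetoacetyl-CoA, the entry to cholesterol synthesis. Long-chain acyl-CoA synthetases such as Acsl3 and Acsl4 activate fatty acids by joining them to coenzyme A. Acsl3 sits on the endoplasmic reticulum and on lipid droplets, and Acsl4 prefers polyunsaturated fatty acids such as arachidonate and feeds them into membrane phospholipids. Acot13 is a thioesterase that releases the fatty acid again. Abca1 passes cholesterol and phospholipid through the plasma membrane to apolipoproteins, and its gene is a classical target of the oxysterol receptors LXR. Microglia use sterol export of the kind that Abca1 carries out to dispose of cholesterol from engulfed myelin, synapses and dead cells.

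None of the 6 transcripts passed a Benjamini-Hochberg adjusted p below 0.05 in any pair of groups. Between CTL and LB 0 of 6 passed in the authors' deposited table, where 0% of all 478 genes did. Between CTL and UPS it was again 0 of 6, against 4.81% of all genes in the authors' deposited table. Between LB and UPS 0 of 6 passed, against 6.28% of all genes in the authors' deposited table. At an unadjusted p below 0.05 the count between CTL and LB was 0 of 6 in the authors' deposited table, against 11.7% of all genes. Only Acsl4 lay below that line between CTL and UPS in the authors' deposited table, 1 of 6 against 16.3% of all genes. Acsl3, Acsl4 and Abca1 lay below it between LB and UPS, 3 of 6 against 18.8% of all genes in the authors' deposited table.

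No header names the numerator of a ratio. For each gene the 3 ratios closed on each other to within 0.003 on the log2 scale, which they would do in either direction. Signs are therefore given as deposited, and no transcript is called higher or lower in a named group. What does not depend on the sign is which group stood between the other two in the estimates, and this is given for each gene. Single libraries were not analysed here, so neither the spread over animals nor the overlap of the groups can be shown. Each gene's standard error was instead recovered from its ratios and p-values, and the 95% intervals rest on it. Litter was not modelled, so these intervals are too narrow where littermates are alike. Absolute levels are not in the tables used here, so the abundance of these transcripts and the levels of microglial markers were not checked. In bulk samples, fewer cells of a type and less RNA per cell cannot be told apart.

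**Figure D1:**
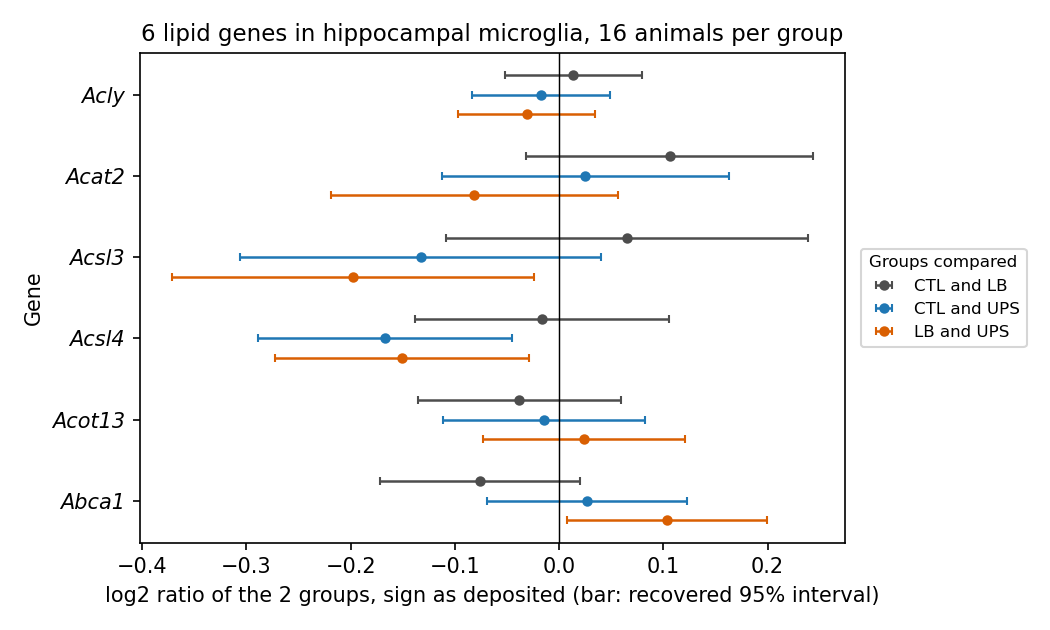
Log2 ratio of each of the 6 lipid genes (vertical axis) in the 3 comparisons, with sign as deposited on the horizontal axis. Points are the authors' deposited ratios and bars are recovered 95% intervals, with 16 animals per group. The intervals of Acsl4 for CTL and UPS and of Acsl3, Acsl4 and Abca1 for LB and UPS do not reach 0, and all the others do.

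The acyl-CoA synthetases had the largest ratios of the 6 in both comparisons with UPS, while between CTL and LB those of Acat2 and Abca1 were larger. Acsl4 had a log2 ratio of -0.17 between CTL and UPS in the authors' deposited table, or 0.891-fold (recovered SE 0.060, p = 0.00823, adjusted p = 0.112). Its recovered 95% interval ran from -0.29 to -0.045, or from 0.819-fold to 0.969-fold. Between LB and UPS its ratio in the authors' deposited table was -0.15, or 0.901-fold (recovered 95% interval -0.27 to -0.029, p = 0.0166, adjusted p = 0.135). The UPS animals thus stood apart from the other groups in the estimate, while CTL and LB lay 0.017 apart in the authors' deposited table (p = 0.782). That last interval ran from -0.14 to 0.10, so CTL and LB were not distinguished and a difference of up to 1.10-fold remained inside it. These comparisons with UPS share the same UPS libraries and are not independent of each other.

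Acsl4 ranked 35th of 478 by p between CTL and UPS and 59th between LB and UPS in the authors' deposited tables, so it lay outside the 23 and 30 genes that passed. Its gene is on the X chromosome, and the groups held equal numbers of males and females. Whether the ratio differed between the sexes was not tested, since the tables pool them.

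Acsl3 had its largest ratio between LB and UPS, -0.20 or 0.872-fold in the authors' deposited table (recovered SE 0.086, recovered 95% interval -0.37 to -0.024, p = 0.0263, adjusted p = 0.177). It lay at 0.065 between CTL and LB (p = 0.448) and at -0.13 between CTL and UPS (p = 0.132) in the authors' deposited tables. CTL was therefore the middle group, with LB and UPS on opposite sides, and neither neighbour differed from CTL at an unadjusted p below 0.05. Acsl3 was the least precisely measured of the 6, with a standard error that ranked 394th of 478 from the smallest. Its intervals accordingly left room for changes of up to 1.18-fold between CTL and LB, 1.24-fold between CTL and UPS and 1.29-fold between LB and UPS.

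Acsl3 and Acsl4 had the same sign in both comparisons with UPS and opposite signs between CTL and LB. Over the 3 log2 ratios the nearest of the other 5 genes to each of them was the other synthetase, at a Euclidean distance of 0.10. Among all genes, however, 13 others lay nearer to Acsl3 and 18 others nearer to Acsl4. The pair is thus close within the 6 and not singular among all genes of the authors' deposited tables. A test of the difference between the 2 genes needs values per library and was not made.

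Abca1, the sterol exporter, had the opposite sign between LB and UPS. Its log2 ratio there was 0.10 in the authors' deposited table, or 1.07-fold (recovered SE 0.048, recovered 95% interval 0.0071 to 0.20, p = 0.0363, adjusted p = 0.215). It lay at -0.076 between CTL and LB (p = 0.116, adjusted p = 0.503) and at 0.026 between CTL and UPS (p = 0.580) in the authors' deposited tables. As for Acsl3, CTL stood between LB and UPS, with the ends in reverse order, and neither neighbour was separated from CTL. No interval of Abca1 reached beyond 1.15-fold. Among the 6, Acsl3 and Abca1 were the most distant pair over the 3 ratios, at 0.37.

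The promoters of the 3 genes with an unadjusted p below 0.05 are shown. Of these, 2 hold a match to the same sterol receptor element, which was searched for after the windows had been read. Whether it bears on their ratios was not tested. RefSeq windows of the GRCm38.p6 build, from 250 bases before to 50 after the gene's start, matched 5 of the 6 genes, and Acot13 had no entry. The windows printed 5′ to 3′ on the gene's own strand are chr1:78657575-78657874 (plus strand) for Acsl3, chr4:53159846-53160145 (minus strand) for Abca1 and chrX:142390486-142390785 (minus strand) for Acsl4. Capitals mark the DR4 element, a direct repeat spaced by 4 bases of the kind that LXR binds together with its partner RXR.
Acsl3: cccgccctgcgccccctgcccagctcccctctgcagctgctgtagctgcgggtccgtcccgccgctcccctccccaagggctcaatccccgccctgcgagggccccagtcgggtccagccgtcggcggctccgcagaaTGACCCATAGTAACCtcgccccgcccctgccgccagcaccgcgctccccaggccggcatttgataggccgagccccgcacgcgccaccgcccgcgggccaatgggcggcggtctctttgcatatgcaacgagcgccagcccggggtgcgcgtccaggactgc
Abca1: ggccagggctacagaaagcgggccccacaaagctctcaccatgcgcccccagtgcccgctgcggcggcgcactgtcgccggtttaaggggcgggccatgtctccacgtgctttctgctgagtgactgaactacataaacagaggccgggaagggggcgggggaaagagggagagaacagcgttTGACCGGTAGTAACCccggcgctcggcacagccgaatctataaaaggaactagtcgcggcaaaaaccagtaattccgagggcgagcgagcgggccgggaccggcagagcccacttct
Acsl4: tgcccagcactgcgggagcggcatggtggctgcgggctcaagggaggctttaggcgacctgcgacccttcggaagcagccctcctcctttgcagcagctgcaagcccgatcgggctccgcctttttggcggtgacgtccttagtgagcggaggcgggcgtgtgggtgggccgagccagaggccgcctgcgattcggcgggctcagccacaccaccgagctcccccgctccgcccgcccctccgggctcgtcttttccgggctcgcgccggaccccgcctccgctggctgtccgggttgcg

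The DR4 search used the letters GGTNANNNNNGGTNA on both strands and matched 0.718% of 32851 promoter windows of the same length. Of the 5 windows, those of Acsl3 and Abca1 matched and those of Acly, Acat2 and Acsl4 did not. Both matches lay on the opposite strand. In Abca1 the element spanned bases -67 to -53 from the start, and in Acsl3 bases -112 to -98. Abca1 also held a TATA box (TATAAA, in 13.6% of all windows) at bases -29 to -24 and an E-box (CACGTG, in 7.15%) at bases -147 to -142. A GC box (GGGCGG, in 35.7% of all windows) was present in all 5. CCAAT (in 37.4% of all windows) occurred in Acsl3 at bases -15 to -11. In Acly it lay at bases 37 to 41, after the start. The letters TCACNCCAC, a form of the sterol regulatory element that SREBP binds, occurred in 1.24% of all windows and in none of the 5. Some GC boxes overlap each other, as in Acsl4 between bases -22 and -13. The motifs were chosen after these windows had been read, so their shares of all windows are no test of the matches. A match describes letters and not binding.

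Neither enzyme at the start of the pathway, Acly or Acat2, was separated between any pair of groups. Acly had log2 ratios of 0.014 between CTL and LB (p = 0.679), -0.018 between CTL and UPS (p = 0.595) and -0.031 between LB and UPS (p = 0.346) in the authors' deposited tables. Its standard error of 0.033 was the smallest of the 6 and ranked 67th of 478. No interval of Acly reached beyond 1.07-fold. Larger differences of this transcript lay outside all 3 of them, which take no account of litter. CTL was the middle group, and no neighbours were separated.

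Acat2 had its largest ratio between CTL and LB, 0.11 or 1.08-fold in the authors' deposited table (recovered SE 0.068, recovered 95% interval -0.032 to 0.24, p = 0.127, adjusted p = 0.522). It lay at 0.025 between CTL and UPS (p = 0.717) and at -0.082 between LB and UPS (p = 0.240) in the authors' deposited tables. UPS was the middle group here, close to CTL, and no pair was separated at an unadjusted p below 0.05. Its intervals allowed differences of up to 1.18-fold between CTL and LB.

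Acot13, the thioesterase, had no ratio beyond 0.038 in size. Its log2 ratios in the authors' deposited tables were -0.038 between CTL and LB (p = 0.432), -0.014 between CTL and UPS (p = 0.766) and 0.024 between LB and UPS (p = 0.624). With a standard error of 0.048, changes above 1.10-fold lay outside all of its intervals. UPS stood between LB and CTL, again with no pair separated.

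Across the 6 the estimates did not place the groups in a shared order. For no gene was the middle group separated from both neighbours at an unadjusted p below 0.05, so the orders themselves are not resolved. By the estimates CTL was the middle group for Acly, Acsl3 and Abca1, UPS for Acat2 and Acot13, and LB for Acsl4. Positive ratios in the authors' deposited tables numbered 3 of 6 between CTL and LB, 2 of 6 between CTL and UPS and 2 of 6 between LB and UPS. The corresponding shares of all 478 genes were 52.7%, 48.7% and 43.9% in the authors' deposited tables. The median size of the log2 ratio was 0.052 for the 6 between CTL and LB, against 0.043 over all genes of the authors' deposited table. Between CTL and UPS it was 0.026 against 0.051, and between LB and UPS 0.092 against 0.054, in the authors' deposited tables. With 6 genes these medians rest on the middle pair of values each, and they are a description without a test.

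**Figure D2:**
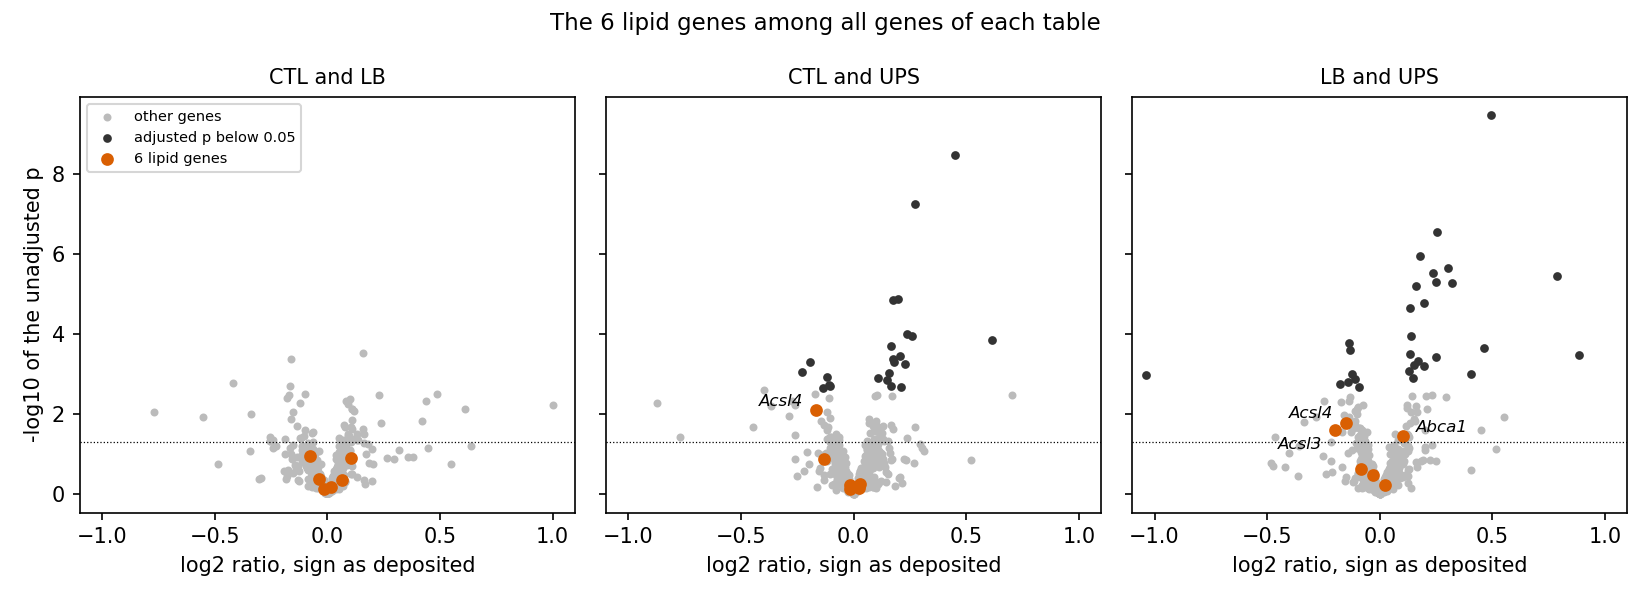
Each panel plots, for 1 pair of groups, the -log10 of the unadjusted p (vertical) against the log2 ratio with sign as deposited (horizontal) for all 478 genes. The 6 lipid genes are orange, genes with an adjusted p below 0.05 are black, and the dotted line marks an unadjusted p of 0.05. Acsl4 between CTL and UPS, and Acsl3, Acsl4 and Abca1 between LB and UPS, lie above the line and below the black points.

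Genes with the most similar ratios were looked up for the 3 transcripts with an unadjusted p below 0.05, by Euclidean distance over the 3 log2 ratios, of which only 2 are independent. Nearest to Acsl3 were the chloride importer Slc12a2 (distance 0.031) and the lysosomal growth factor Grn (0.039). Slc12a2 passed between LB and UPS, with -0.18 in the authors' deposited table (adjusted p = 0.0301), while Grn had -0.17 (adjusted p = 0.530). Nearest to Acsl4 were Spp1, osteopontin (0.047), and the cytokine receptor Il21r (0.051). Il21r lay at -0.15 between CTL and UPS (adjusted p = 0.177) and at -0.17 between LB and UPS (adjusted p = 0.0635) in the authors' deposited tables. Nearest to Abca1 were the vesicle protein Syngr1 (0.012) and the phosphatase Mtmr4 (0.023), neither of which passed in any of the authors' deposited tables. The distance takes no account of error, and Spp1 had an unadjusted p of 0.462 between CTL and UPS in the authors' deposited table.

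Few of the listed genes of lipid metabolism were in the tables. Of 42 genes listed for fatty acid and cholesterol synthesis and 27 for acyl-CoA activation, hydrolysis and phospholipid remodelling, 0 were among the 478. Of 33 genes for sterol efflux, LXR targets and lipoprotein handling, 2 were measured besides Abca1. Apoe, the main lipid carrier of the brain and an acceptor of lipid exported by Abca1, had ratios of -0.0042, 0.13 and 0.13 in the order CTL and LB, CTL and UPS, LB and UPS in the authors' deposited tables. Its unadjusted p was 0.0451 between CTL and UPS and 0.0386 between LB and UPS, and it did not pass there (adjusted p = 0.30 and 0.218). Lpl, the lipoprotein lipase, lay at -0.24, -0.079 and 0.16 in the authors' deposited tables, with wide intervals, and did not pass (smallest unadjusted p = 0.0715). Abca1, Apoe and Lpl had the same signs between LB and UPS and between CTL and LB, comparisons that share the LB libraries. Apoe was near 0 between CTL and LB (p = 0.945). Between CTL and UPS the signs differed, with Lpl negative and Abca1 and Apoe positive, and 0 of these 3 passed in any comparison.

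Fatty acid oxidation, the route that consumes activated acyl groups, had 7 of 39 listed genes in the tables. None passed between CTL and LB, where Hsd17b4, a peroxisomal oxidation enzyme, at -0.12 (p = 0.0398) and Slc25a17, a peroxisomal cofactor carrier, at 0.069 (p = 0.0459) had the smallest p-values of the 7 in the authors' deposited table. Between CTL and UPS 1 of 7 passed with a negative ratio, Crot, which hands shortened acyl groups to carnitine in peroxisomes (-0.11, adjusted p = 0.0461 in the authors' deposited table), where 4.81% of all genes passed. Acat1, the mitochondrial thiolase and counterpart of Acat2, lay at -0.17 (adjusted p = 0.0596) in that authors' deposited table, where Acat2 lay at 0.025. The recovered 95% interval ran from -0.28 to -0.061 for Acat1 and from -0.11 to 0.16 for Acat2, and the difference between the thiolases was not tested. The authors' deposited table of LB against UPS held 2 of 7 that passed with a negative ratio, Crot (-0.14, adjusted p = 0.00628) and Slc25a17 (-0.13, adjusted p = 0.00813), where 6.28% of all genes passed. The median of the 7 was -0.065 between CTL and UPS and -0.083 between LB and UPS in the authors' deposited tables, beside -0.0024 and -0.010 over all genes. Both synthetases had negative ratios in these comparisons too, and the 2 groups of genes were not tested against each other.

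**Figure D3:**
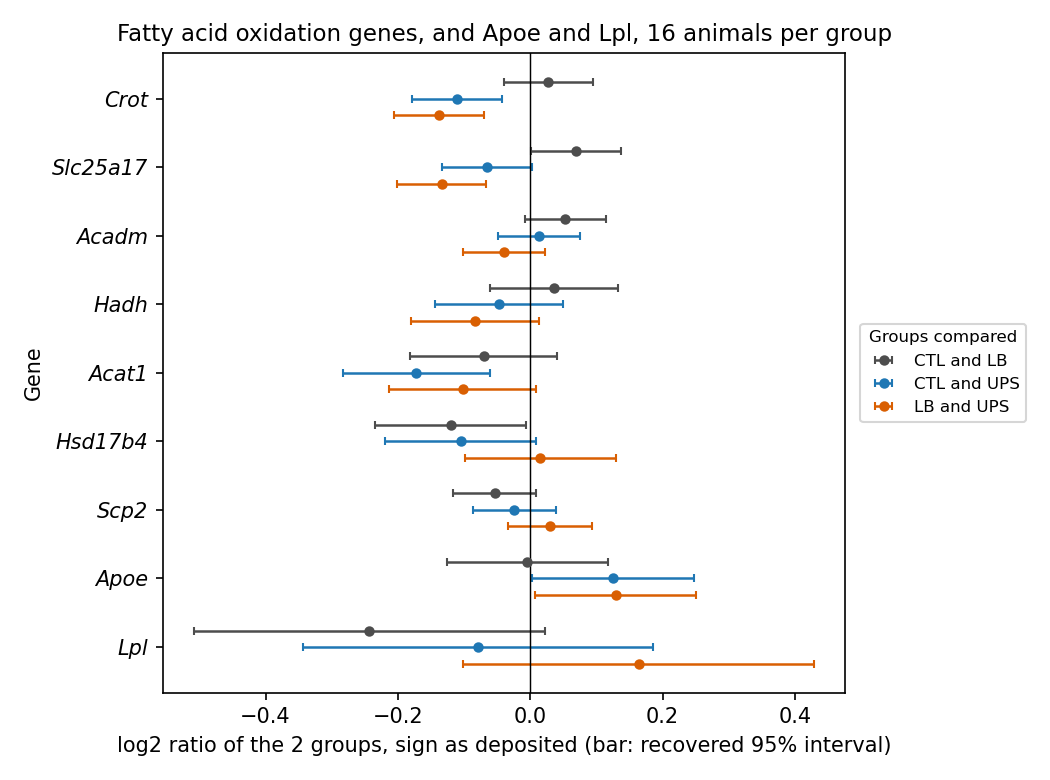
Log2 ratio, with sign as deposited (horizontal), of the 7 measured fatty acid oxidation genes and of Apoe and Lpl (vertical) in the 3 comparisons of 16 animals per group. Bars are recovered 95% intervals. Crot and Slc25a17 lie to the left of 0 between LB and UPS, and Lpl has the widest intervals.

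Markers of other cells were few. Of 11 measured markers of astrocytes, oligodendrocyte lineage, neurons, vessels, border macrophages and blood leukocytes, 2 passed between CTL and UPS and 2 between LB and UPS in the authors' deposited tables, where 4.81% and 6.28% of all genes passed, and 0 passed between CTL and LB. These were the astrocyte glutamate transporter Slc1a3 and the macrophage scavenger receptor Stab1. In the authors' deposited tables Slc1a3 lay at 0.21 between CTL and UPS and at 0.25 between LB and UPS. Stab1 lay at 0.205 and 0.195 in the same order in the authors' deposited tables. Glul, the other astrocyte marker measured, had the same sign as Slc1a3 in both and did not pass. In the authors' deposited tables it lay at 0.107 between CTL and UPS (p = 0.0797) and at 0.154 between LB and UPS (p = 0.0132). Of the 11, 2 had positive ratios between CTL and LB, 6 between CTL and UPS and 9 between LB and UPS in the authors' deposited tables, beside 52.7%, 48.7% and 43.9% of all genes. Klrd1, a receptor of natural killer cells, had the largest ratio of the 11, -0.77 between CTL and UPS in the authors' deposited table (p = 0.0388, adjusted p = 0.294). In both comparisons with UPS, the sign of Slc1a3 and Stab1 was opposite to that of Acsl3 and Acsl4 and equal to that of Abca1 and Apoe. These comparisons share the UPS libraries. Between CTL and UPS the signs of Abca1 (0.026, p = 0.580) and Acsl3 (-0.13, p = 0.132) were not resolved. All 12 listed microglial markers were measured, and only Tmem119 passed, between LB and UPS (0.46 in the authors' deposited table). Whether other cells contributed to the ratios of the 6 lipid genes was not tested.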

How the data were processed

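RNA of about 60000 sorted microglia per animal was counted with barcoded probes on the nCounter glial panel, in 48 libraries run as 4 batches of 12. Per the labels' protocols 4 to 5 litters supplied the animals of a group and sex. Litter was not modelled, which makes p-values too small and the recovered intervals too narrow where littermates are alike.

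The authors deposited a log2 fold change, a linear ratio, a p-value and an adjusted p-value per gene. Per the series text they used nSolver's advanced analysis with batch as a covariate. Its normalization and version, and the depth per library, are unknown here. No model was refitted. P-values were adjusted by Benjamini-Hochberg over the 478 genes of a table, and calls equalled those of the deposited column. Standard errors were recovered with a t distribution of 42 degrees of freedom (1 model of 48 libraries, rearing and batch). A gene's errors then differed between tables by a median of 0.100%, against 0.104% with sex added and 0.113% with batch left out. For fits of 2 groups with batch it was 0.277%. The first 3 values lie close, so the model is not settled, its covariates above all. The scripts (Python 3.11.15, scipy 1.17.1) were tested on simulated data.

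All 6 genes were named, as were, of the pathway lists, the genes past the threshold and the 2 with the smallest p per list and comparison, and 2 similar genes per transcript with an unadjusted p below 0.05. Markers of other cells past the threshold, Tmem119, Klrd1, Glul, Csf3r and Cspg4 were named after their values were seen. Genes and lists were chosen with earlier results of these data known.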

Additional observations from a re-analysis of the deposited data

How the results depend on the processing

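No transcript of the 6 passed under any of the 18 alternative counts: the deposited adjusted p column, the 3 tables adjusted together, Benjamini-Yekutieli, Bonferroni, centring on the median of all genes, and an adjusted p below 0.1, each in 3 comparisons. Benjamini-Yekutieli and Bonferroni can only raise an adjusted p, and the deposited column gave the same calls. Only the joint adjustment, the centring and the looser threshold could therefore have added a transcript. All 36 alternative ratios, from the linear column or after centring, kept their sign and stayed above the threshold, and the lowest adjusted p was 0.112. Ratios from the linear column kept the deposited p-values, so only centring could move an adjusted p. After centring, that of Acsl4 between CTL and UPS was 0.127. The count of 3 of 6 at an unadjusted p below 0.05 between LB and UPS fell to 0 at an unadjusted p below 0.01, and the other counts of this kind held. Intervals moved by between -3.25% and 1.70% of their width with 30 or 27 degrees of freedom or a normal distribution. Each alternative recovered the error from the same ratio and p, so the widths could move only little. This does not settle the model. Over all genes the 23 calls between CTL and UPS became 5 with Bonferroni and 4 with Benjamini-Yekutieli, and the 30 between LB and UPS became 11 and 13, or 48 at an adjusted p below 0.1. Between CTL and LB the count of 0 became 3 with the tables adjusted together. The cause was not tested. No paired analysis was possible because the tables analysed here hold ratios and p-values of whole groups and no value per library, and leaving out single animals was not run for the same reason. Precision is limited by 16 animals per group, drawn from 4 to 5 litters per group and sex, and counts behind the ratios are unknown.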

Other observations

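A further set of 10 genes, picked by name after the panel's gene names had been read, covers the supply of acetyl-CoA by pyruvate dehydrogenase, fatty acid elongation, the protease that activates SREBP, and AMP-activated kinase, which restrains lipid synthesis. None of the 10 passed in the authors' deposited tables, where 0%, 4.81% and 6.28% of all genes did (CTL and LB, CTL and UPS, LB and UPS). At an unadjusted p below 0.05 the counts were 3, 1 and 3 of 10 in the same order. The shares of all genes below that line were 11.7%, 16.3% and 18.8% in the authors' deposited tables. Between LB and UPS the pyruvate dehydrogenase genes Dlat and Pdhb lay at -0.16 (p = 0.0110) and -0.099 (p = 0.0103) in the authors' deposited table, while Pdha1, of the same complex, lay at 0.090 (p = 0.156). Pdha1 had its smallest p between CTL and UPS, with 0.13 in the authors' deposited table (p = 0.0418), and Dlat also lay at 0.13 between CTL and LB (p = 0.0331). The kinase subunits Prkab1 and Prkab2, alternative forms of the same subunit, had ratios of opposite sign in the authors' deposited table of CTL against LB, 0.12 (p = 0.00850, adjusted p = 0.209) and -0.34 (p = 0.0102, adjusted p = 0.222). The difference between these forms was not tested. Mbtps1, the SREBP protease, lay at -0.011, -0.019 and -0.0080 in the authors' deposited tables, and its intervals reached no further than 1.09-fold. The elongation genes Hacd2 and Hacd3 had ratios from -0.070 to 0.070 in the authors' deposited tables.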
